A study of Homo sapiens with 2 samples.

Results

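The loci of 10 genes for mesenchymal structural proteins were examined in the chromatin accessibility maps of B2B cells, out of 20007 protein-coding genes. B2B is BEAS-2B, an immortalized and non-cancerous line of human bronchial epithelial cells with the wild-type genotype, grown in serum-containing medium and profiled untreated in 2 replicates. Accessibility was measured by ATAC-seq, where peaks mark the DNA that the enzyme Tn5 could reach and cut. The genes were VIM, CDH2, FN1, SPARC, TGFBI, LOX, POSTN, THY1, CAV1 and CD44, and the span of each reached 50 kb beyond both ends of the gene as annotated in GENCODE 44 (hg38). The loci were set by gene name and position, with no threshold on a peak value. The genes were chosen with earlier results of these data known. Since untreated B2B cells were the only condition read, no test was possible, and differences are set against the spread of the 2 replicates.

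Mesenchymal cells are held together less by cell junctions than by an extracellular matrix that they secrete. Their cytoskeleton is built on vimentin, encoded by VIM, and they adhere through N-cadherin (CDH2) and the hyaluronan receptor CD44. Fibronectin (FN1), SPARC, TGFBI and periostin (POSTN) are matrix proteins, lysyl oxidase (LOX) crosslinks collagen and elastin, THY1 is a surface glycoprotein of fibroblasts, and caveolin-1 (CAV1) shapes membrane caveolae. Epithelial cells can take up this set of genes when they lose their junctions, a change called epithelial-mesenchymal transition.

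In these loci B2B cells had 46 peaks in replicate 1 and 53 in replicate 2, which merged into 55 regions. A peak of each replicate lay in 40 of them, called open regions from here on. These fell into 11 at the promoters of the listed genes, 4 at promoters of neighbouring protein-coding genes and 25 distal regions. A promoter region overlapped the 1 kb to either side of the transcription start site (TSS) of the canonical transcript, and a distal region overlapped no such window of a protein-coding gene. The 2 peak lists hold 28735 and 36162 peaks on chromosomes 1 to 22, X and Y, and the weakest summits held 16 fragments in replicate 1 and 13 in replicate 2. A promoter without a peak may thus be open below these limits, and the limit is higher where the surrounding DNA has a higher background. Opening in few cells cannot be told apart from weak opening in all cells.

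The sequences of 5 distal regions are shown because the results turn on them. They are the distal regions with the highest fold enrichment at SPARC, CD44, CDH2 and POSTN and, at TGFBI, the region with AP-1 letters that had the most fragments. Each covers 100 bp to either side of the summit on the plus strand of hg38, and capitals mark the AP-1 letters TGACTCA or TGAGTCA and the TEAD letters ACATTCC or GGAATGT. They lie upstream of SPARC (chr5:151699204-151699404), in intron 8 of TGFBI (chr5:136053704-136053904), in intron 1 of CD44 (chr11:35166720-35166920), in intron 2 of CDH2 (chr18:28115158-28115358) and upstream of POSTN (chr13:37617237-37617437).
SPARC, 12.4 kb upstream of the TSS: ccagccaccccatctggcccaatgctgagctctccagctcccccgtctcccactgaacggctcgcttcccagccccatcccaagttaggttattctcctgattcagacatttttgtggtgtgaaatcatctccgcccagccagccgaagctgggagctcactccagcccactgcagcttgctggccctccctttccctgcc
TGFBI, 24.8 kb downstream of the TSS: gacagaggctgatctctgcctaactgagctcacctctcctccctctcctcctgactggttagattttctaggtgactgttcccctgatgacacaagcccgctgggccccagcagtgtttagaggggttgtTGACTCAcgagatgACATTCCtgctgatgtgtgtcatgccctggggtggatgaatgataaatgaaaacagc
CD44, 27.6 kb downstream of the TSS: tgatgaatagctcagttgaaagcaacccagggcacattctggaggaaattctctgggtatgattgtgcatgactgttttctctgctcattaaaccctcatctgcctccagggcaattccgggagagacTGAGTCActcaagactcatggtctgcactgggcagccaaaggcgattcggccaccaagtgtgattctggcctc
CDH2, 61.9 kb downstream of the TSS: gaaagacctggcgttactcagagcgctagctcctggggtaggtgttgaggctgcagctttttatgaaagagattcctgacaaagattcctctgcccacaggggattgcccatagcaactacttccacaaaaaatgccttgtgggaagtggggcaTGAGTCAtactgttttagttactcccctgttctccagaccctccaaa
POSTN, 18.6 kb upstream of the TSS: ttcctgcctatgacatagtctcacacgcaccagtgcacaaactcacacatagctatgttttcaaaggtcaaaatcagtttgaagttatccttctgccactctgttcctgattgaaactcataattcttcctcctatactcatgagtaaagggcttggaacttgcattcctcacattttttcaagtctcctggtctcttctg
The windows of TGFBI, CD44 and CDH2 hold AP-1 letters, and that of TGFBI also holds TEAD letters. The windows of SPARC and POSTN hold neither.

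VIM, CDH2, FN1, SPARC, TGFBI, LOX and CAV1 had a promoter peak in both replicates, which is 7 of 10 genes. The background over all 20007 genes was 52.3%. THY1 and CD44 had a promoter peak in replicate 2 only, as did 5.74% of all genes, and POSTN had none in either, as did 41% of all genes. A list of 10 chosen genes is too short to set these shares apart, and they are given as a description.

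The matrix genes TGFBI and SPARC had the highest promoter peaks of the list by mean fold enrichment, a linear ratio in which MACS2 adds 1 to the fragments of the summit and 1 to the background before dividing. At TGFBI, which binds integrins and collagen in the matrix, both replicates rounded to 11.1, with a mean of 11.1 ± 0.0577 (SD, n = 2). At SPARC, a collagen-binding glycoprotein, it was 12.1 and 10.1, or 11.1 ± 1.41 (SD, n = 2). The replicates of SPARC differed by more than the means of the 2 genes, so neither ranks above the other. At FN1, the gene of fibronectin, which carries a site that integrins bind, the values were 9.87 and 9.04, or 9.46 ± 0.585 (SD, n = 2). SPARC and TGFBI lay above FN1 in each replicate. CAV1, with 8.82 and 11.05, lay below both in replicate 1 but above SPARC in replicate 2, so it is not set apart from them. By fragments TGFBI, with 64 in each replicate, was below CAV1 with 66 and 91, and SPARC was above both with 108 and 103.

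POSTN stood apart from these matrix genes, with no peak within 1 kb of its TSS in either replicate. Its promoter and that of SPARC are both poor in CpG, a dinucleotide that is dense at promoters open in most tissues. SPARC had 25 CpG within 500 bp of the TSS, more than 22.3% of genes, and POSTN had 7, more than 5.10% of genes. Of the protein-coding genes with 20 to 29 CpG 10.8% had one in both replicates, and of those with 0 to 9 CpG 1.61% did. SPARC was thus open where few genes of like CpG count were, whereas POSTN had the state usual for its count. The 250 bp upstream of both starts, read on the strand of the gene with CG in capitals, hold 7 CpG at SPARC (chr5:151686916-151687165) and 1 at POSTN (chr13:37598769-37599018).
SPARC: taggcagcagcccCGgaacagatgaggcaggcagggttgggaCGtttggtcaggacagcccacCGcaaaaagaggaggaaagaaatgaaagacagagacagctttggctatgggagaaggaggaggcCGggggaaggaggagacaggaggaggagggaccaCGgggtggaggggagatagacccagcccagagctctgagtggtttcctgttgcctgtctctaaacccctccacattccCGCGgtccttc
POSTN: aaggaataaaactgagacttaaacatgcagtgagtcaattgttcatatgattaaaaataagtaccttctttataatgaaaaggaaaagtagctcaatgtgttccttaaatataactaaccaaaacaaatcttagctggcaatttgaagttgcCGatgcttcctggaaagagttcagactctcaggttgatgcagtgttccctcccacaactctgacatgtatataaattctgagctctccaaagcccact
The other 8 genes had between 55 CpG (VIM) and 118 CpG (CDH2). CD44, with 67 CpG, fell in the group of 60 to 69 CpG, in which 69.9% of genes had a promoter peak in both replicates.

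**Figure D1:**
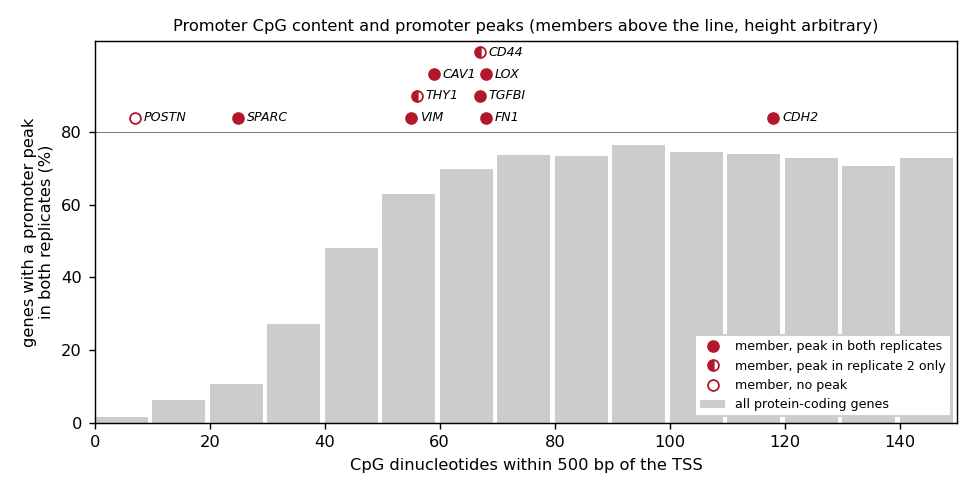
Grey bars give the percentage of all protein-coding genes with a promoter peak in both replicates (y axis) by the number of CpG within 500 bp of the TSS (x axis, in groups of 10). The points above the line mark the CpG count of each of the 10 genes, with an arbitrary height, filled where both replicates had a promoter peak, half-filled for replicate 2 only and open for none; SPARC, at 25 CpG, is a filled point over a low bar.

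The promoters of VIM and CDH2 had a lower fold enrichment than those of FN1, SPARC and TGFBI in both replicates. By fragments they did not differ in this way from FN1, since the VIM regions had 53 and 54, and 55 and 51, CDH2 had 60 and 49, and FN1 had 58 and 54. VIM had 2 promoter regions inside the 5′ end of the gene. The first, with its summit 0.337 kb past the TSS in intron 1 of the canonical transcript, had a fold enrichment of 7.19 in replicate 1 and 6.92 in replicate 2. The second, 0.943 kb past the TSS and also over the start of the antisense RNA gene VIM-AS1, had 7.43 and 6.53. Within each replicate the 2 regions were close, and their order changed between replicates. CDH2 had a single promoter region of 1458 bp after merging, the widest of the 10 loci. In replicate 1 it held 2 peaks. The one of 457 bp, with its summit 0.115 kb upstream of the TSS, had a fold enrichment of 7.23. The one of 847 bp, with its summit at chr18:28177993, had 5.93. Replicate 2 had 1 peak of 1235 bp, with its summit at chr18:28177967 and 6.05. The mean of 7.23 and 6.05, 6.64 ± 0.838 (SD, n = 2), is thus from different positions. The summits with 5.93 and 6.05 each held 49 fragments.

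At CD44 the promoter peak lay 0.158 kb upstream of the TSS, also within 1 kb of the start of the noncoding RNA gene CD44-DT, and was in the list of replicate 2 only. Its fold enrichment of 5.21 rested on 22 fragments, and 10.7% of the promoter peaks of that replicate were weaker. THY1 had a peak of 18 fragments in replicate 2, 0.297 kb past the TSS in intron 1. It had the fold enrichment 4.30, and 2.54% of promoter peaks were weaker. When equal numbers of the strongest peaks were taken from each list, THY1 had no promoter peak in either.

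LOX and CAV1 each had 2 promoter regions, both over annotated starts. At LOX the region around the canonical TSS, with its summit 0.129 kb upstream, had a fold enrichment of 6.64 in replicate 1 and 6.46 in replicate 2. A region of 1431 bp further into the gene had 7.72 and 6.11, and RefSeq places 2 more starts of LOX under it, 1.036 and 1.085 kb past the canonical one (promoter windows at chr5:122077174-122077473 and chr5:122077125-122077424). Its summit lay 1.373 kb past the canonical TSS in replicate 1 and 0.37 kb past it in replicate 2. The 2 values are thus from different positions. At CAV1 the region with its summit 0.31 kb upstream of the TSS had 8.82 and 11.05, or 9.94 ± 1.57 (SD, n = 2). A separate region in intron 1 had 7.76 and 6.51, and it covers a RefSeq start 1.33 kb past the canonical TSS (promoter window at chr7:116526112-116526411). At CAV1 the upstream region was the higher one in both replicates. At LOX the order of the regions changed between replicates, but the downstream summit was at a different position in each. A second RefSeq start of CDH2, 140 kb into the gene, had no region over it.

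**Figure D2:**
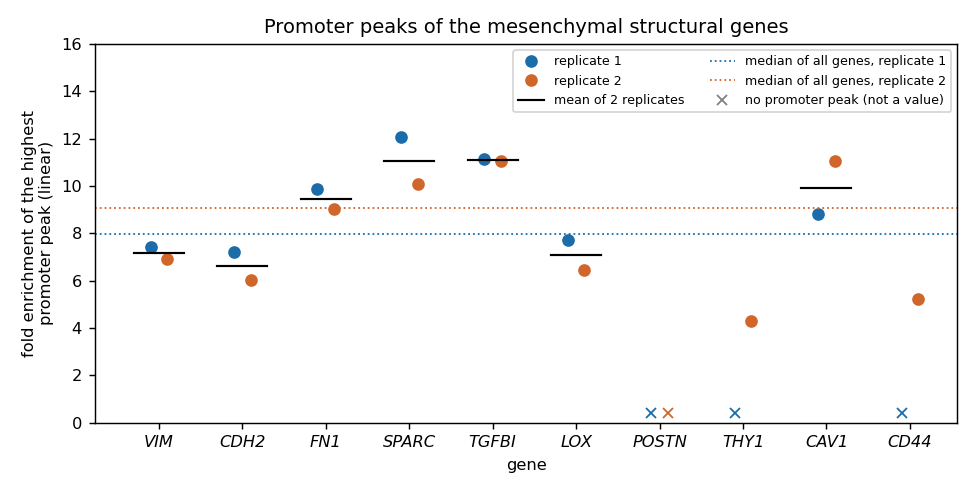
The y axis gives the linear fold enrichment of the highest promoter peak for each of the 10 genes on the x axis, with a point per replicate and a bar for the mean where both had a peak; crosses mark an absent peak and are no value, and dotted lines are the medians over all protein-coding genes with a promoter peak (7.97 and 9.06). TGFBI lies above the dotted lines in both replicates with nearly equal values, and POSTN has a cross for each replicate.

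The median of the promoter values was 8.82 over 7 genes and 6.92 over 9 genes in the 2 replicates, or 7.87 ± 1.35 (SD, n = 2). Over all protein-coding genes with a promoter peak it was 7.97 in replicate 1 and 9.06 in replicate 2, but the replicates cover different genes of the list. Over the 7 genes with a peak in both the medians were 8.82 and 9.04, and 3 of 7 genes in replicate 1 and 6 of 9 in replicate 2 lay below the general median. Promoter regions of these genes were higher in replicate 2 in 2 of 11 cases, whereas 70.2% of all promoter regions were. The 11 regions come from 7 genes and are not independent cases. The 2 sets also differ in the background that was used, as described below, and its part in this contrast was not tested. Distal regions of these loci were higher in replicate 2 in 19 of 25 cases, against a general share of 77.9%.

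The fold enrichment of these promoters was measured over a raised background. MACS2 divides by the larger of a genome-wide background, here 4.77 fragments in replicate 1 and 3.41 in replicate 2, and a background estimated from the surrounding DNA. The genome-wide value applied to 82.1% of peaks in replicate 1 and 70.6% in replicate 2. Where it applies in both, equal fragments give a higher fold enrichment in replicate 2, so the SD there includes a fixed offset between the lists. In 11 of 11 promoter regions of the listed genes the surrounding value was the larger one in both replicates, and among all promoter regions this was so for 26.8%. The downstream LOX promoter region had a background of 10.7 and 9.64 fragments, at summits 1.37 and 0.37 kb past the TSS. The SPARC promoter had 8.04 and 9.33. Counted as fragments, the SPARC promoter held 108 and 103 in the replicates, more than 92.0% and 92.5% of all promoter regions. By fold enrichment the same region exceeded 81.2% and 60.5% of them. LOX shows the same contrast, since its downstream promoter region had 89 and 64 fragments, more than 86.7% and 74.5% of promoter regions, and exceeded 52.5% and 20.9% by fold enrichment. The median promoter region of these genes had 60 fragments in replicate 1 and 54 in replicate 2, against 44 and 43 over all promoter regions.

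**Figure D3:**
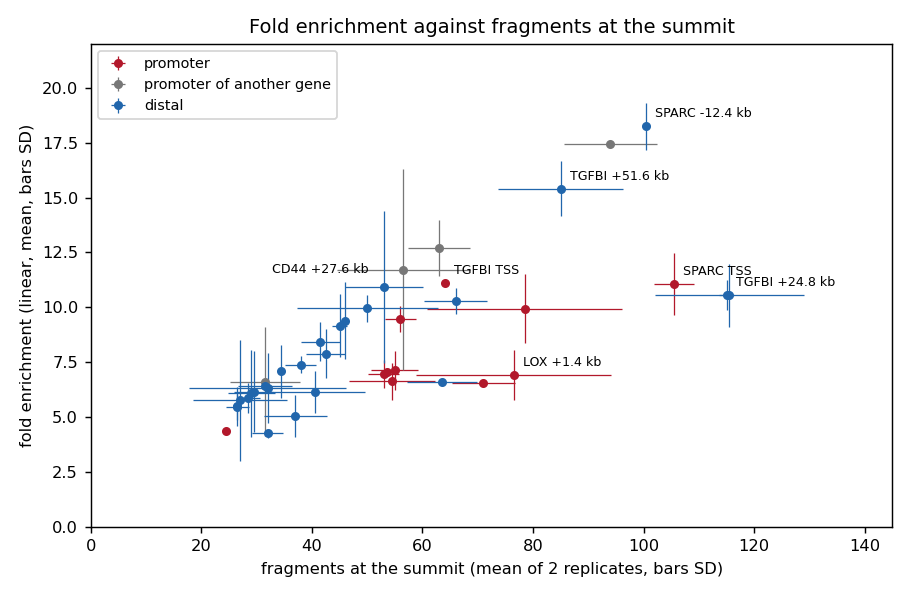
Each point is 1 of the 40 open regions, with the mean number of fragments at the summit on the x axis and the mean linear fold enrichment on the y axis; bars are the SD of the 2 replicates and colours give the class of region. Promoters such as SPARC and LOX lie to the right at moderate fold enrichment, where the 2 TGFBI intron regions (11.1 and 10.1, 11.5 and 9.54) also lie, and the SPARC region 12.4 kb upstream is the highest point.

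Every locus held at least 1 distal open region, 10 of 10 genes against 52.2% of all protein-coding genes. This share is not matched for the length of the span, which was 345 kb at CDH2. In the further lists read below, 7 of 30 mesenchymal and 6 of 25 epithelial genes had no distal region. The 10 loci had a median of 2.67 open regions per 100 kb, and all genes had a median of 1.54. The range was wide. TGFBI had 10 open regions, or 7.42 per 100 kb, more than 98.8% of genes, followed by SPARC with 4.77 and CAV1 with 4.41. VIM had 3.66, THY1 2.74, LOX 2.60 and FN1 1.71. CDH2, POSTN and CD44 had under 1 region per 100 kb, at 0.869, 0.734 and 0.517. Of the distal regions, 10 lay upstream of the gene, 6 downstream, 8 in introns and 1 in an exon, and for 24 of 25 the nearest TSS of a protein-coding gene was that of the listed gene, although no contact between them was measured here.

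**Figure D4:**
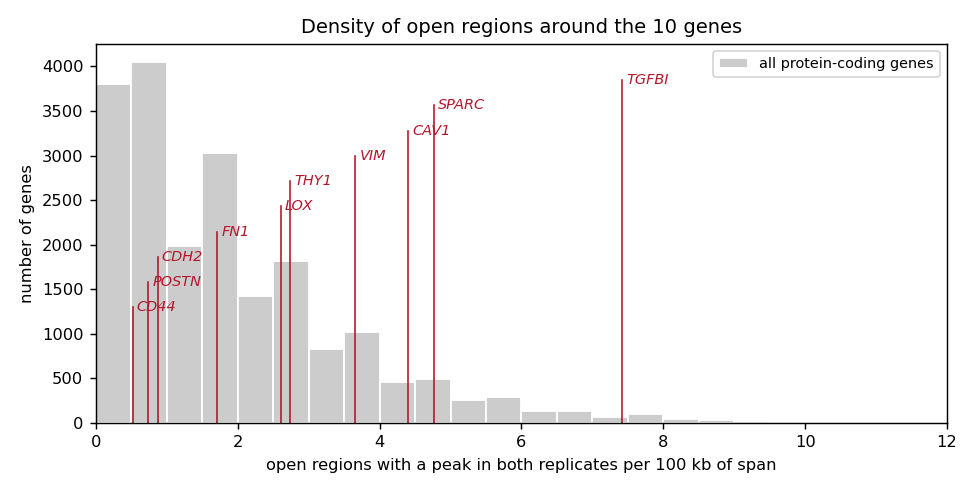
Grey bars count protein-coding genes (y axis) by the number of open regions with a peak in both replicates per 100 kb from 50 kb before to 50 kb past the gene (x axis). Red lines place the 10 genes, with TGFBI at 7.42 in the right tail and CD44 at 0.517 on the left.

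The TGFBI locus was open along its length. Upstream of the gene lay 4 distal regions, between 8.39 and 29.4 kb from the TSS, and the strongest of these was the nearest, at 9.88 and 10.7. A region in intron 2 had 3.81 and 7.70, so the replicates differed most there. A pair of regions in introns 8 and 12, 24.8 and 29.6 kb past the TSS, had 11.1 and 10.1, and 11.5 and 9.54. Their summits had 116 and 114 fragments, and 125 and 106, at or above 98.0% of all distal regions in each replicate. The promoter of TGFBI had 64 fragments in each replicate, fewer than either intron region. A last region 16.8 kb past the end of the gene had a fold enrichment of 16.3 and 14.5, and it overlaps the start of VTRNA2-1, a vault RNA gene.

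The strongest distal region of the 10 loci lay 12.4 kb upstream of the SPARC TSS, with no gene start within 1 kb. The replicates gave a fold enrichment of 17.5 and 19.0, or 18.3 ± 1.07 (SD, n = 2), and its summit had 100 and 101 fragments. It exceeded 98.2% and 97.9% of all distal regions by fold enrichment. The SPARC locus had a further distal region 1.69 kb past the TSS in intron 1, with 59 and 68 fragments, and 3 past the 3′ end of the gene with fold enrichments from 6.24 to 8.67. The distal region exceeded the SPARC promoter by fold enrichment in both replicates, but by fragments the promoter was higher in both, at 108 and 103.

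CD44 and POSTN each had a single open region, and it was distal. In intron 1 of CD44, 27.6 kb past the TSS, the replicates gave 8.49 and 13.4, or 10.9 ± 3.45 (SD, n = 2), with 48 and 58 fragments. In replicate 2 this was above the 5.21 of the CD44 promoter peak, and in replicate 1 the promoter had no peak. The POSTN region, 18.6 kb upstream, had 10.4 and 9.52, or 9.96 ± 0.622 (SD, n = 2), with 59 and 41 fragments. Both genes thus had an open distal region beside a promoter that was weak or without a peak.

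CDH2, the longest of the genes at 245 kb, had 2 distal regions. The one in intron 2, 61.9 kb past the TSS, had a fold enrichment of 8.14 and 10.6, or 9.40 ± 1.77 (SD, n = 2). Its fragments were equal at 46, so this SD comes from the different genome-wide backgrounds of the replicates. The other, 10.7 kb past the end of the gene and at the start of a long noncoding RNA gene, had 7.80 and 9.06. Both exceeded the CDH2 promoter by fold enrichment in each replicate, but not by fragments, since they had 46 and 46, and 44 and 39, against 60 and 49 at the promoter.

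The remaining loci had weaker distal regions. FN1 had 1, 24.8 kb upstream, with a fold enrichment of 4.85 and 7.48, and VIM had 1, 1.84 kb past the TSS in intron 2, with 4.12 and 4.39. LOX had 1, 21.0 kb upstream, with 7.45 and 5.21. THY1 had 1 in its exon 4, at the start of THY1-AS1, with 4.85 and 6.12, and 1 at 9.56 kb upstream of the TSS with 5.37 and 6.34. The 4.85 and 6.12 are from different positions, with summits at chr11:119417844 in replicate 1 and chr11:119417457 in replicate 2. A second peak of replicate 1, with its summit at chr11:119417430, had 4.33. CAV1 had 3, with fold enrichments from 4.38 to 6.57. In both replicates these values were below those of the highest distal region at SPARC, TGFBI, CDH2, POSTN and CD44, with LOX the closest in replicate 1.

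**Figure D5:**
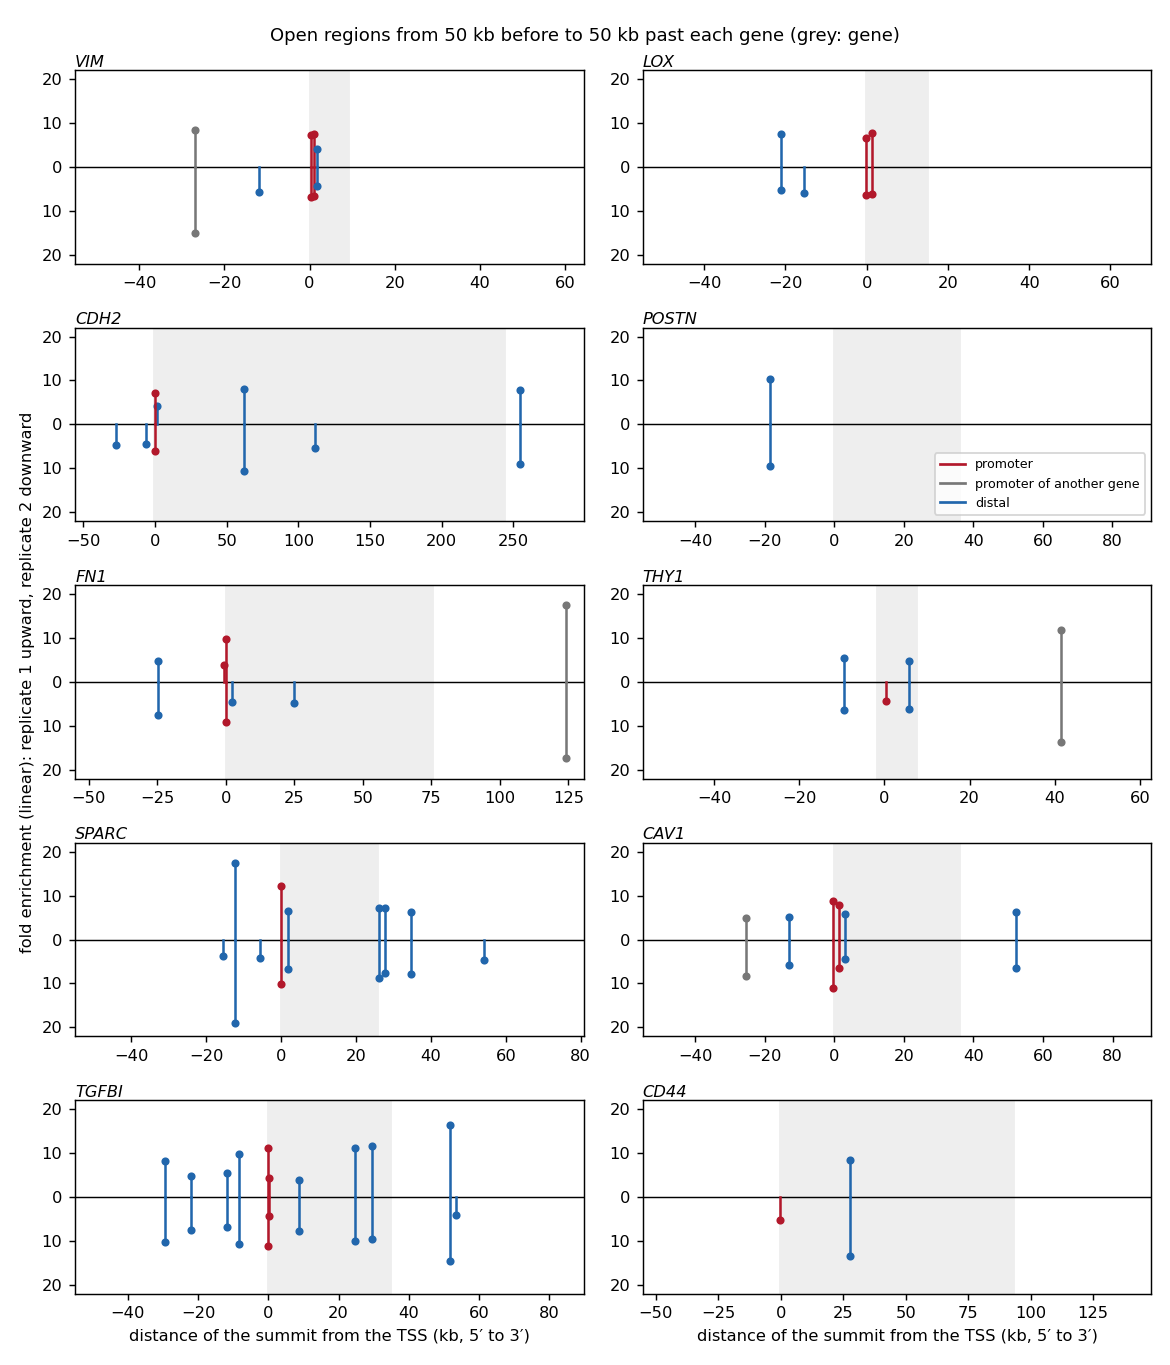
Each panel is 1 gene, with the distance of each peak region from the TSS in kb along the direction of transcription (x axis) and its linear fold enrichment (y axis), drawn upward for replicate 1 and downward for replicate 2; grey marks the gene and colours the class of region. Lines on 1 side only are peaks of a single replicate; TGFBI and SPARC carry regions on both sides of the TSS, CD44 and POSTN a single one seen in both replicates.

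Of the 7 genes with a promoter peak in both replicates, CDH2, SPARC and TGFBI had a distal region above the promoter by mean fold enrichment, and 26.1% of all such genes did. When fragments at the summit were used in place of fold enrichment, a choice made after the data were seen, this held for 1 gene, TGFBI, against 24.2% of all such genes. The median distal region had a fold enrichment of 7.1 and 7.70 in the 2 replicates, or 7.40 ± 0.424 (SD, n = 2), and all distal regions had 6.06 and 7.48.

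SPARC, TGFBI and LOX lie on chromosome 5 beyond 80 Mb, where distal regions carried more fragments. Beyond 80 Mb of chromosome 5 the median distal region had 41 fragments in replicate 1 and 40 in replicate 2, and elsewhere it had 34 and 34. The 14 distal regions of the 3 genes had medians of 44 and 46 fragments, and the 11 of the other genes had 35 and 33. The part of this shift in the results was not tested. Without the 3 genes the median fold enrichment of the distal regions was 5.71 and 6.57 in the replicates, below the 6.06 and 7.48 of all distal regions, where with them it was above in both. The mean of these medians was 6.14 and the median density was 1.71 regions per 100 kb. A promoter peak in both replicates was found for 4 of 7 genes, against 52.3% of all genes.

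Of the 4 neighbouring promoters inside the spans, those of USP2, ATIC and TRDMT1 had a higher fold enrichment than that of the listed gene. The promoter of USP2, a deubiquitinase gene 33.8 kb past the end of THY1, had 11.8 and 13.6, where THY1 had 4.30 in replicate 2 only. The promoter of ATIC, an enzyme gene of purine synthesis beyond the end of FN1, had 17.5 and 17.3, above FN1 in each replicate. TRDMT1, an RNA methyltransferase gene upstream of VIM, had 8.49 and 15.0, but by fragments it had 48 in replicate 1, below the 55 of the higher VIM region, and 65 in replicate 2. CAV2, which encodes the partner of caveolin-1 in caveolae, had 4.85 and 8.38, below the CAV1 promoter in each replicate.

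AP-1, the dimer of Jun and Fos proteins that the study is about, binds the letters TGACTCA or TGAGTCA. Among 25 distal regions 9 held them no farther than 100 bp from the summit, as did 32.9% of all distal regions, so the count is close to the background. The regions belonged to 6 genes. TGFBI had 3, CAV1 had 2, and CDH2, LOX, THY1 and CD44 had 1 each, while none of the 5 distal regions of SPARC held the motif. In THY1 the motif was centred 7 bp from the replicate 2 summit in exon 4. Within 50 bp of the summit the share was 24% against 22.5% of all distal regions. From replicate 1 alone it was 9 of 28 against 31.5%, and from replicate 2 alone 13 of 36 against 30.9%. Over the whole region the count was 14 of 25 against 38.6% of all distal regions, and with any base at the centre (TGANTCA) it was 13 of 25 against 40.2%. The regions of these loci are also wider, with a median of 385 bp against 332 bp.

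Of the promoter regions 1 of 11 held the AP-1 letters, in VIM at 49 bp from the summit, and 2.9% of all promoter regions held them. TEAD letters (ACATTCC or GGAATGT) were in 2 of 25 distal regions, at TGFBI and THY1, against 10.1% of all, and in 1 of 11 promoter regions, that of SPARC, against 1.28%. RUNX letters (TGTGGTT or AACCACA) were in 2 distal regions, both upstream of TGFBI, against 8.02% of all, and in 0 of 11 promoter regions against 1.43%. The letters CAGGTG or CACCTG, bound by ZEB and SNAIL repressors, were in 1 distal region, at LOX, against 7.92% of all, and in 0 of 11 promoter regions against 9.42%. Both strands were searched, none of the 4 motifs contains another, and a match does not show that a factor was bound.

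Other genes of the mesenchymal program were read the same way. Of 30 further genes of mesenchymal cytoskeleton, matrix and surface 18 had a promoter peak in both replicates, 2 in a single replicate and 10 in none, against 52.3% of all genes with one in both. ALCAM, an adhesion receptor, had the highest mean fold enrichment at 13.1 ± 0.732 (SD, n = 2). NT5E, the ectonucleotidase CD73, followed at 12.3 ± 0.945, and TAGLN, an actin-binding protein of smooth muscle, at 11.1 ± 0.658 (SD, n = 2). With the TSS of any transcript 21 of 30 had one in both replicates, against 56.2% of all genes. The genes without a peak at the canonical TSS were ACTA2, CNN1, CDH11, FBLN1, FAP, PDGFRA, DCN, LUM, COL1A2 and COL3A1. Like POSTN, the matrix genes DCN and LUM, with 7 each, and COL3A1, with 10, have few CpG, as does the cell-surface protease gene FAP with 10, but the cadherin gene CDH11 has 77 and FBLN1 116.

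The labelled cell type is bronchial epithelial, and the structural genes of epithelium were read as a check. Of 25 genes of epithelial junctions, keratins and their regulators 8 had a promoter peak in both replicates, 1 in a single replicate and 16 in none, against 52.3% of all genes with one in both. With the TSS of any transcript 12 of 25 had one in both replicates, against 56.2% of all genes, so the count depends on the starts used. These genes had a median of 2 distal regions per span, and the 10 mesenchymal genes had 1.5. JUP, the junction protein plakoglobin, had 12.9 ± 4.51, CLDN1, a tight junction claudin, had 12.9 ± 2.50, and TJP1, a junction scaffold, had 7.39 ± 2.61 (SD, n = 2). No peak at the canonical TSS was found for CDH1, EPCAM, KRT5, KRT7, KRT14, KRT19, CLDN4, CLDN7, DSC2, CRB3, ESRP1, ESRP2, GRHL2, OVOL1, ELF3 and CDH3. Some of these had a peak in both replicates at the TSS of another transcript, so the list does not mean absence at every start. A shorter list of 13 markers of bronchial epithelium shares 12 with these genes and is no further evidence. Of it KRT18 and OCLN had a peak at the canonical TSS in both replicates, KRT8 in replicate 2, and 10 had none, against the same 52.3%. TP63 was among the 10, but its other starts were not read on their own. Its span of 366 kb held 6 distal regions with a peak of each replicate, so its locus was not closed. The part of these epithelial genes in the state of the mesenchymal loci was not tested.

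Regions seen in 1 replicate were weak. There were 2 in replicate 1 and 13 in replicate 2, with fold enrichments from 3.78 to 5.89 and 18 to 35 fragments at the summit. Across the 40 open regions the fold enrichments of the replicates had a Spearman correlation of 0.758, and across all 25366 open regions it was 0.809, over regions that share their libraries. None of the 55 regions matched mitochondrial DNA.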

How the data were processed

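Peak lists of 2 B2B replicates were analysed. The authors aligned to hg38 (Bowtie2 2.4.4), discarded duplicates by their own code and ran MACS2 2.2.7.1 on each replicate with its duplicate filter off. The Tn5 offset, mitochondrial filter and q limit are not given in the sources used here. In the deposited lists fold enrichment is a ratio, and −log10 p and −log10 q are given per peak. The deposited score is 10 times the −log10 q without decimals and was not used.

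Peaks were merged at an overlap of 1 bp. Fragments at each summit were solved from fold enrichment and −log10 p, and were whole within 0.01 for 99.9% of peaks in each list. The steps were tested on simulated data. Python 3.11.15, numpy 2.4.6, pandas 2.3.3, scipy 1.17.1, pysam 0.24.0, matplotlib 3.10.9 and BLAST 2.17.0 (E-value at most 1e-10) were used, with GENCODE 44 and RefSeq promoter windows of GRCh38.p14, the same build, in which THY1 was not matched. Canonical starts came from GENCODE.

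The members and lists were chosen with earlier results of these data known, so the choice of genes is not independent of them. Genes named were the 10 listed, neighbours with a promoter in a span, and, of the further lists, the 3 highest promoters and those without a peak. Alternatives were other promoter widths, spans, overlaps, peak limits, starts and motif windows, and each replicate alone.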

Additional observations from a re-analysis of the deposited data

How the results depend on the processing

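Over 10 results 82 values were computed under alternatives, of which 64 stayed within 1.5 times a count or within the replicate SD and 18 moved. Some of these outcomes were fixed in advance. The median promoter fold enrichment stays within its SD when either replicate is left out, whatever the data. For the density and the AP-1 share the SD was itself taken from the values of each replicate alone. The 2 counts are thus a description and no measure of robustness. Some values turned against those over all genes or regions. With each replicate left out in turn, the median fold enrichment of the distal regions was 6.60 to 6.85, the AP-1 share of the distal regions 32.1% to 36.1%, the median density 3.25 to 3.56 regions per 100 kb, and 3 to 5 genes had a distal region above the promoter, by construction with more regions kept. Without the members on chromosome 5 there were 4 of 7 genes with a promoter peak in both replicates, against 52.3% of all genes. There was 1 gene with a distal region above the promoter, and the density was 1.71. The median distal fold enrichment was 6.14, which in both replicates was below that of all distal regions. With fragments in place of fold enrichment, chosen after seeing the data, 1 of 7 genes had a distal region above the promoter, against 24.2% of all such genes. Requiring peaks to overlap by 50% gave a density of 2.22, which was 3.98 in spans of 25 kb and 2.44 in spans of 100 kb, where 39 distal regions lay. The density over all genes, 1.54, was computed at the main setting only. It cannot be set against the densities at other overlaps or spans or from a single replicate. The AP-1 share was 24.0% within 50 bp (22.5% of all distal regions), 56.0% over the whole region (38.6%) and 52.0% for TGANTCA (40.2%).

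No paired analysis was possible because only untreated B2B cells were read. Peaks under 16 fragments (replicate 1) or 13 (replicate 2) are below detection, and where the surrounding background is raised the limit is higher. The causes were not tested.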
